A study of Mus musculus with 8 samples.

Results

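H3K27ac peaks were described over 10 genes of the thyroid hormone and retinoid receptor system: the thyroid hormone receptors Thra and Thrb, the retinoid X receptors Rxra, Rxrb and Rxrg, the retinoic acid receptors Rara, Rarb and Rarg, the vitamin D receptor Vdr, and Klf9, a Krüppel-like zinc finger factor known as a direct target of the thyroid hormone receptors. The genes were chosen by name from 21951 protein-coding genes, and every peak over a gene body or within 20 kb of it was taken, which gave 33 of the 28924 peaks of proliferating cells and 34 of the 27965 peaks of differentiating cells. H3K27ac, acetylation of lysine 27 of histone H3, marks active promoters and enhancers, and it was mapped by chromatin immunoprecipitation and sequencing in the mouse line Oli-neu, which the labels describe as embryonic oligodendrocyte precursors of strain C57BL/6. Proliferating cells were kept in an expansion medium with triiodothyronine (T3, 340 ng/ml), L-thyroxine (400 ng/ml), bFGF (10 ng/ml) and PDGF-BB (1 ng/ml). Differentiating cells spent 1 day, by the labels, in medium without growth factors and with 1 µM of the erb inhibitor PD174265, and the labels do not say whether thyroid hormone was kept in it. Each state had 1 library from this 1 line, which leaves no replicate spread to set a difference between the states against, and the states were not tested against each other. The study's 6 ATAC-seq samples, 3 of siCtrl and 3 of siPadi2 cells, were not used here.

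Thyroid hormone, retinoic acid and vitamin D receptors are transcription factors of the nuclear receptor family that bind DNA mainly as heterodimers with an RXR, on direct repeats of a short half-site, and the spacing of the repeat favours one receptor or another. Without ligand, thyroid hormone and retinoic acid receptors recruit corepressor complexes, and ligand exchanges these for coactivators that acetylate histones. In the oligodendrocyte lineage thyroid hormone is known to drive precursors out of the cell cycle and into myelination, retinoids act in the same cells, and RXRγ is known for a role in remyelination. H3K27ac over a receptor gene is a mark on that gene's chromatin and measures neither its mRNA nor its ligand.

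Each peak carries a fold enrichment and a significance, −log10 q, from the authors' peak calling, and both were ranked within their own list. A percentile here is the share of the list's peaks with a lower value. Positions are given in bp from the transcription start site (TSS) of the gene, negative upstream, on GRCm38/mm10 with GENCODE M21. Of 12 markers of the oligodendrocyte lineage, 3 had a promoter peak in proliferating and 5 in differentiating cells, and Sox10, Olig1 and Olig2 had one in both. Over all protein-coding genes the shares were 23.7% and 27.7%. Neuronal markers had 0 and 1 of 5, astrocyte markers 1 and 0 of 5, and microglial markers 0 and 0 of 5. The study's methods state more uniquely mapped reads for the differentiating library than for the proliferating one, and the part of this in the ranks was not tested. Read counts are not part of the lists and the depth at a peak is therefore unknown, and a gene without a peak is one at which none was called.

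A peak in the window was found for 9 of the 10 genes in proliferating cells, all but Rarb, against 62.7% of all protein-coding genes. In differentiating cells it was found for 9 genes, all but Rxrg, against 62.7%, and for 8 genes in both states, against 53.1%. The share in each state was above 62.7% on the chromosomes of all members but Thrb and Rarb. It ran from 43.7% and 42.5% on chromosome 14 to 93.1% and 93.0% on chromosome 15. Chromosome and window length were not matched in these comparisons. A peak in the promoter region, which began 3000 bp before the TSS and ended 100 bp after it, lay at 4 genes in proliferating cells (Thra, Rxrb, Rarg and Klf9; 23.7% of all genes) and at 3 in differentiating cells (Thra, Rxrb and Klf9; 27.7%). These 3 genes had one in both states, against 17.6% of all genes. Counting 1000 bp to either side of the TSS instead, Thrb and Rarg joined the differentiating cells, for 5 genes (31.1% of all genes), and proliferating cells had 3 (26.9%). A peak over the TSS of an annotated transcript was present at 4 genes in proliferating cells (Thra, Rxra, Rxrb and Klf9; 22.4% of all genes), at 5 in differentiating cells (Thra, Thrb, Rxrb, Rarg and Klf9; 27.1%) and at 3 in both (17.0%). Peaks of both states that overlapped each other lay in the windows of 6 genes, Thra, Rxrb, Rara, Rarg, Vdr and Klf9, against 40.6% of all genes.

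**Figure D1:**
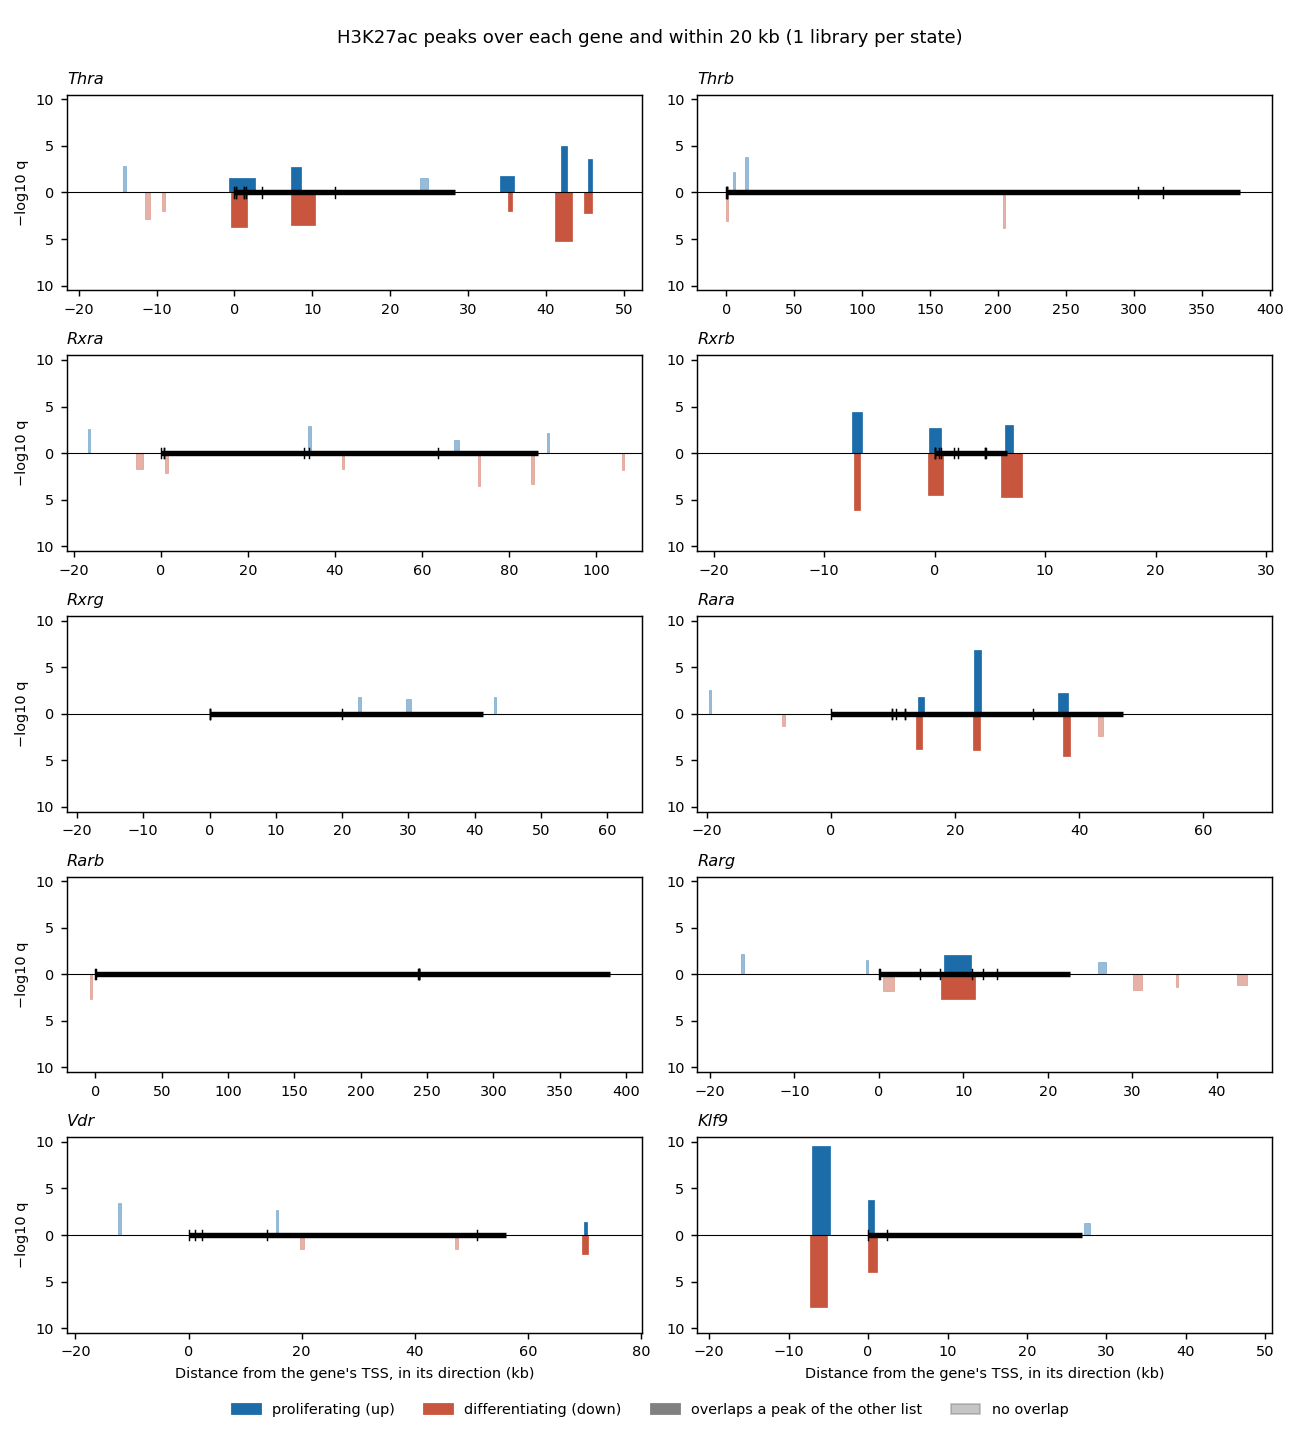
H3K27ac peaks of proliferating (blue, upward) and differentiating (red, downward) Oli-neu cells over each gene and within 20 kb of it, with the distance from the gene's TSS in kb on the horizontal axis and −log10 q on the vertical axis. Thick black lines are gene bodies, ticks are the TSSs of annotated transcripts, full colour marks peaks that overlap a peak of the other list and pale colour those that do not. Very narrow peaks are drawn at a minimum width. The highest bars are the upstream peaks of Klf9, and Rxrg has no red bar and Rarb no blue one.

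Thra (ENSMUSG00000058756.13, chromosome 11, 98740638 to 98769006, plus strand), which encodes the thyroid hormone receptor α, held 7 peaks in each state, of which 5 of each list overlapped. The peak over its start reached from -744 to 2603 bp in proliferating cells and from -469 to 1622 bp in differentiating cells, and in both it covered 6 of the 8 distinct TSSs of the gene. In proliferating cells this peak was wide and weak: 3348 bp, above 99.8% of its list by width, with a −log10 q of 1.57, above 23.8% of the list, and a fold enrichment of 2.64. In differentiating cells it was 2092 bp wide with a −log10 q of 3.72, above 88.3% of the list, and a fold enrichment of 2.87. The rank by −log10 q thus lay 64.4 percentage points higher in differentiating cells, and 4.10% of all 8471 overlapping pairs of peaks in the genome moved by as much in either direction.

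Inside Thra an intronic peak from 7309 to 8551 bp in proliferating cells corresponded to one from 7317 to 10320 bp in differentiating cells, which touched an exon. They were 1243 bp and 3004 bp wide, the latter above 99.6% of its list by width. Their −log10 q values were 2.73 and 3.53, at percentiles 77.9 and 86.7. Beyond the 3′ end of Thra, the peaks from 34130 to 35892 bp (percentile 42.1) and from 35115 to 35644 bp (percentile 52.7) lay at the start of Nr1d1, which encodes the nuclear receptor REV-ERBα on the opposite strand; the proliferating peak covered that start and the differentiating one began 420 bp from it. The strongest peaks of the Thra window in both states lay further on, from 41881 to 42758 bp with a −log10 q of 4.99 in proliferating cells and from 41141 to 43351 bp with 5.22 in differentiating cells, at percentiles 95.6 and 94.9. The nearest TSS of a protein-coding gene there was that of Nr1d1, 7186 bp and 6446 bp away. The last shared peaks, from 45422 to 45909 bp and from 44919 to 45932 bp, ranked at percentiles 89.2 and 64.6. The window therefore held marks of several genes, and which of them a peak serves was not measured.

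Thrb (ENSMUSG00000021779.17, chromosome 14, 17660261 to 18038090, plus strand), which encodes the thyroid hormone receptor β over 377830 bp, held 2 peaks in each state and none that overlapped. In differentiating cells a peak from 150 to 1064 bp, with a fold enrichment of 3.84 and a −log10 q of 3.09 at percentile 81.9, covered 3 of the 6 distinct TSSs of Thrb. It begins inside the gene and so falls outside the promoter region of the gene's first TSS. In proliferating cells the nearest peak to the start lay from 5183 to 5681 bp (percentile 61.0), and the strongest from 14678 to 14940 bp (−log10 q 3.84, percentile 90.8), which is the least width in that list. The strongest differentiating peak, from 204030 to 204308 bp (3.77, percentile 88.6), also had the least width of its list, and lay in an intron. The stretch before the inner starts of Thrb, from RefSeq on GRCm38.p6, is shown because peaks of the 2 states differ over it: chr14:17660710-17660891 on the plus strand, up to the base before an annotated exon, was covered by the differentiating peak over 100% of its length and by no proliferating peak. It has 74.2% G and C, and capitals mark the one half-site of nuclear receptors (AGGTCA, or TGACCT on the other strand) in it.
Thrb promoter: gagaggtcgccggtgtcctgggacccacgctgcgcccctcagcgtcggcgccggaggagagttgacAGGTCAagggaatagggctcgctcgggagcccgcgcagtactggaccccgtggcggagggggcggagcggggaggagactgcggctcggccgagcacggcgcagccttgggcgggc

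**Figure D2:**
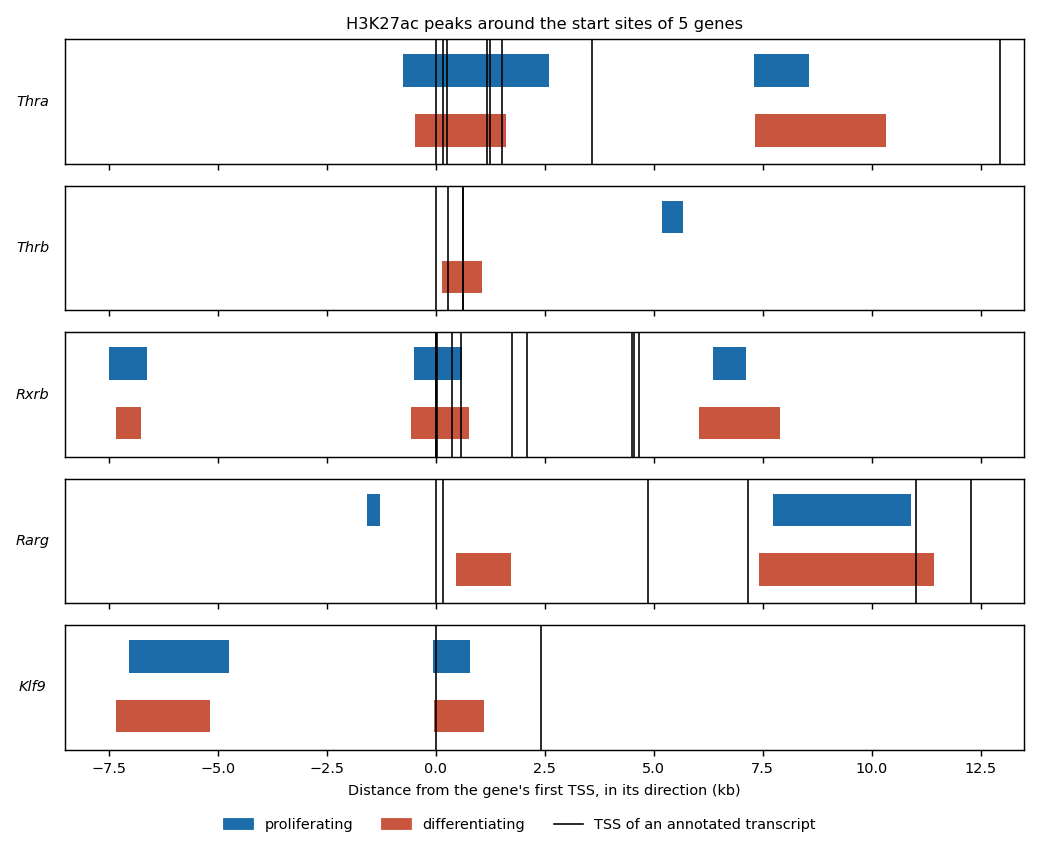
H3K27ac peaks around the start sites of Thra, Thrb, Rxrb, Rarg and Klf9, in kb from the first TSS of each gene in its direction, with proliferating cells in blue above and differentiating cells in red below. Black lines are the TSSs of annotated transcripts. At Thra, Rxrb and Klf9 both peaks lie over the first TSS; at Thrb a differentiating peak alone lies over inner TSSs, and at Rarg the differentiating peak reaches an inner TSS that the proliferating one stops short of.

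Among the retinoid X receptors, the common partners of the other receptors, Rxrb had the mark at its start in both states and Rxra and Rxrg did not. Rxrb (ENSMUSG00000039656.17, chromosome 17, 34031812 to 34038399, plus strand) held 3 peaks in each state, and all 3 overlapped. The peak over its start reached from -497 to 596 bp in proliferating cells, with a fold enrichment of 3.40 and a −log10 q of 2.66 (percentile 76.4), and from -564 to 761 bp in differentiating cells, with 3.71 and 4.53 (percentile 92.7). Both covered 5 of the 10 distinct TSSs of Rxrb and also the start of Slc39a7, a zinc transporter gene on the opposite strand. The 129 bp between the 2 starts, chr17:34031683-34031811 on the plus strand, lay wholly under the peak in both states. This shared promoter has 72.1% G and C and no half-site, so none of its letters is in capitals.
Rxrb promoter: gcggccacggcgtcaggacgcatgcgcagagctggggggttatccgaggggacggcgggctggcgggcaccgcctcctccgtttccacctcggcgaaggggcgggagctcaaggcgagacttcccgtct

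Upstream of Rxrb, the strongest peaks of the window lay from -7485 to -6625 bp in proliferating cells (fold enrichment 4.17, −log10 q 4.43, percentile 94.0) and from -7337 to -6757 bp in differentiating cells (4.43, 6.10, percentile 96.6). They covered the start of Ring1, a Polycomb gene, and that of the microRNA gene Mir219c, and they overlapped the microRNA gene Mir219a-1. The microRNA miR-219a-5p is known for promoting oligodendrocyte differentiation, and its mature sequence (chr17:34025052-34025072, minus strand, from RefSeq) is shown for that reason with its seed, bases 2 to 8, in capitals. The proliferating peak covered 100% of the mature sequence, whereas the narrower differentiating peak ended within it and covered 19.0%.
mmu-miR-219a-5p: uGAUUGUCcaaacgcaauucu
At the 3′ end of Rxrb the peaks from 6355 to 7119 bp (percentile 83.6) and from 6045 to 7886 bp (percentile 93.3) were shared, and the differentiating one, with 1842 bp against 765 bp, covered the start of Col11a2, a collagen gene. All 3 Rxrb pairs thus ranked higher in the differentiating list, by 2.60, 16.3 and 9.76 percentage points.

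Rxra (ENSMUSG00000015846.14, chromosome 2, 27676440 to 27762957, plus strand) held 4 proliferating and 6 differentiating peaks, none of which had a counterpart. In proliferating cells a peak of 277 bp from 34007 to 34283 bp covered the TSS of the transcript Rxra-203, with a fold enrichment of 4.05 and a −log10 q of 2.96 (percentile 81.8), the highest of that state. In differentiating cells the highest −log10 q was 3.57 (percentile 87.1), in an intron from 72902 to 73180 bp, and 5 of the 6 peaks had the least width in their list, 279 bp. The proliferating peak nearest to the first TSS lay 16246 bp from it, and the differentiating one 1233 bp. Rxrg (ENSMUSG00000015843.10, chromosome 1, 167598384 to 167639623, plus strand) held 3 peaks in proliferating cells and 0 in differentiating cells. By −log10 q all 3 ranked below the middle of their list, with the highest, 1.78 at percentile 39.3, from 42950 to 43212 bp, beyond the end of the gene. By fold enrichment they stood at percentiles 51.8, 19.7 and 51.1. The nearest proliferating peak lay 22391 bp from the TSS, and the nearest differentiating peak in the genome lay 47900 bp from it. A window of 50000 bp on both sides therefore gave Rxrg a differentiating peak.

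The 3 retinoic acid receptors, which bind all-trans retinoic acid, had different patterns. Rara (ENSMUSG00000037992.16, chromosome 11, 98927818 to 98974942, plus strand) held 4 and 5 peaks, none in the promoter region of its first TSS or over a GENCODE start in either state, and 3 shared peaks inside the gene. Of its 4 RefSeq promoters 1, chr11:98964622-98964921, which holds a half-site, lay under the last of these in proliferating cells and under no peak in differentiating cells. The first, from 13972 to 15031 bp and from 13701 to 14760 bp, was 1060 bp wide in both states, with a −log10 q of 1.76 (percentile 37.9) in proliferating cells and 3.84 (percentile 89.0) in differentiating cells. The second, from 23118 to 24219 bp and from 22950 to 24099 bp, was the strongest of the proliferating state, with a fold enrichment of 4.60 and a −log10 q of 6.85 (percentile 98.1), against 3.43 and 3.86 (percentile 89.2) in differentiating cells. The last, from 36544 to 38134 bp and from 37351 to 38465 bp, had a −log10 q of 2.18 (percentile 62.0) and 4.55 (percentile 92.8), the highest of the differentiating state. The middle peak thus ranked lower in the differentiating list by a difference of -8.97 percentage points, and the peaks on both sides of it ranked higher by 51.1 and 30.8. The first TSS had its nearest proliferating peak 13972 bp away and its nearest differentiating peak 7359 bp away.

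Rarb (ENSMUSG00000017491.9, chromosome 14, 16430839 to 16819156, minus strand), itself known as a gene that retinoic acid induces, had no proliferating peak in its 428 kb window. The nearest proliferating peak lay 279921 bp from its TSS. Differentiating cells had 1 peak, upstream from -4017 to -3031 bp, with a fold enrichment of 3.53 and a −log10 q of 2.62 (percentile 73.8). It ends just before the promoter region begins. With a region that begins 6000 bp upstream it counts as a promoter peak of the first TSS, as does that of Rxra from -5714 to -4083 bp. Rarb also has annotated starts far inside, from 243329 to 244111 bp. The nearest peak of either state lay at least 209178 bp from each of these. The RefSeq promoter of Rarb, chr14:16575427-16575726, lay under no peak in either state.

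Rarg (ENSMUSG00000001288.15, chromosome 15, 102234938 to 102257517, minus strand) held 4 and 5 peaks, and 1 of each list overlapped. This shared peak was among the widest of both lists: in proliferating cells it reached from 7732 to 10896 bp, 3165 bp in all, which ranked 63 by width, and in differentiating cells from 7404 to 11423 bp, 4020 bp in all, which ranked 13. It was wide and low, with a fold enrichment of 2.52 and 2.66, above 2.19% and 6.44% of the peaks, and a −log10 q of 2.13 (percentile 59.7) and 2.62 (percentile 73.9). The differentiating peak covered the TSS of the transcript Rarg-202, at 11017 bp, and the proliferating peak ended 121 bp before it. At the first TSS, proliferating cells had a peak of 309 bp from -1581 to -1273 bp (percentile 22.4), and differentiating cells one of 1269 bp from 461 to 1729 bp (percentile 45.6), 1733 bp apart. The strongest proliferating peak of the window by −log10 q, 2.18 at percentile 61.9, lay from -16270 to -16008 bp with the least width in its list, and the shared peak was the strongest in differentiating cells. The 250 bp before the inner start (chr15:102246501-102246750, minus strand, RefSeq on GRCm38.p6) are shown because the edges of the 2 wide peaks fall around them. Of these bases 52.0% lay under the proliferating peak and 100% under the differentiating one. They have 52.4% G and C, and no half-site.
Rarg inner promoter: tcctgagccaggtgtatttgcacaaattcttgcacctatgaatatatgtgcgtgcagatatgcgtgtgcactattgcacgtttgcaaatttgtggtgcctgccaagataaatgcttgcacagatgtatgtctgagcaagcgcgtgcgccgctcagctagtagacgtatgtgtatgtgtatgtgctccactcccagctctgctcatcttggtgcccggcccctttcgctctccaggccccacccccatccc

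Vdr (ENSMUSG00000022479.15, chromosome 15, 97854425 to 97910630, minus strand), which encodes the vitamin D receptor, held 3 peaks in each state and none over an annotated TSS. Distances from the first TSS to the closest peak were 11984 bp and 19775 bp, and among all starts of Vdr the closest peaks lay 1701 bp from the start of Vdr-202 in proliferating cells and 3337 bp from that of Vdr-203 in differentiating cells. Its shared peak, from 69891 to 70460 bp and from 69637 to 70628 bp, lay downstream of the gene, and the nearest TSS was that of Hdac7, a histone deacetylase gene. It ranked at percentile 5.44 in proliferating cells, with a −log10 q of 1.35, and at percentile 55.3 in differentiating cells with 2.0. The strongest proliferating peak lay upstream from -12395 to -11984 bp with a fold enrichment of 4.27 and a −log10 q of 3.44 (percentile 87.9), and the shared peak was the strongest of the differentiating state.

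Klf9 (ENSMUSG00000033863.2, chromosome 19, 23141226 to 23168134, plus strand) had the strongest peaks of all 10 genes by −log10 q in both states. They lay upstream, from -7034 to -4734 bp in proliferating cells, with a fold enrichment of 3.57 and a −log10 q of 9.59, and from -7329 to -5188 bp in differentiating cells, with 3.20 and 7.68. In rank they were 255 of 28924 and 498 of 27965, at percentiles 99.1 and 98.2. Both covered the start of the noncoding RNA gene 2410080I02Rik, and Klf9 had the nearest TSS of a protein-coding gene. A second pair lay over the start of Klf9 itself, from -54 to 784 bp with a fold enrichment of 3.65 and a −log10 q of 3.78, and from -34 to 1107 bp with 3.50 and 3.95, at percentiles 90.4 and 89.6. Both pairs kept their rank between the lists within 1 percentage point. A further peak, from 27192 to 27922 bp beyond the end of the gene, was called in proliferating cells alone, at percentile 4.87. The 250 bp before the start of Klf9 (chr19:23140976-23141225, plus strand, RefSeq on GRCm38.p6) show where these start peaks begin: the last 21.6% of the stretch lay under the proliferating peak and the last 13.6% under the differentiating one. It has 59.6% G and C and no half-site.
Klf9 promoter: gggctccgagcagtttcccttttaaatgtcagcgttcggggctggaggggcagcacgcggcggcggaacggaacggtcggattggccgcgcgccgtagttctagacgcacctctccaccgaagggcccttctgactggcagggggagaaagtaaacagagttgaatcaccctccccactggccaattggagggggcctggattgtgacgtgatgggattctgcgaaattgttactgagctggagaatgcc

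**Figure D3:**
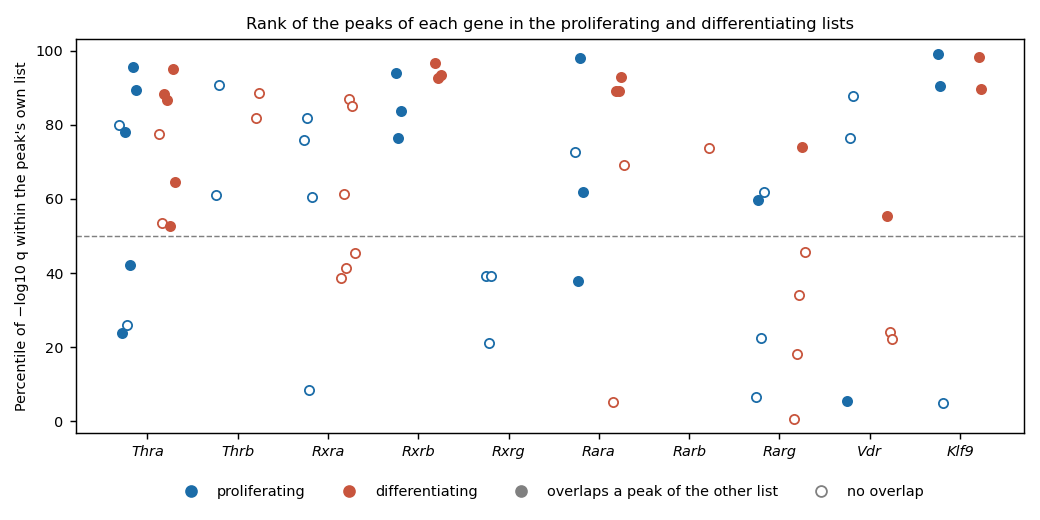
Percentile of −log10 q of every peak of the 10 genes within its own list, for proliferating (blue) and differentiating (red) cells. Filled points overlap a peak of the other list, open points do not, and the dashed line is the middle of a list. The Klf9 pairs lie near 90 and above 98 in both states, all 3 Rxrg points lie below the line, and open points spread over the whole range.

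Peaks with a counterpart in the other state numbered 15 of 33 in proliferating cells, a share of 45.5% (28.1% to 63.6%, 95% Clopper-Pearson), and 15 of 34 in differentiating cells, a share of 44.1% (27.2% to 62.1%). The whole lists gave 29.2% and 30.1%. The interval covers counting error only, and several peaks share a gene. With a reciprocal overlap of at least 0.5 the shares were 27.3% and 26.5%, against 16.7% and 17.3% in the whole lists. Shared peaks were wider, with medians of 1094 bp and 1150 bp against 293 bp and 562 bp for the others. Any shared base counted as an overlap, so a wide peak meets a counterpart more readily in any set. The widths of the whole lists were not split by counterpart, and the split is not read as particular to these genes. Of the 18 and 19 peaks without a counterpart, 8 in each list had the least width that the list holds, 263 bp or 279 bp, and none of the shared peaks had. Such peaks made up 24.2% and 23.5% of the peaks of the windows, against 22.9% and 17.5% of the whole lists. Over all peaks of the windows the median width was 731 bp and 989.5 bp, against 652 bp and 755 bp in the whole lists, and the median −log10 q was 2.18 and 2.62, against 1.93 and 1.89. The nearest peak of the other list lay between 1733 bp and 70290 bp from the proliferating peaks without a counterpart, and between 1726 bp and 275903 bp from the differentiating ones.

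Of the 15 overlapping pairs, 10 ranked higher by −log10 q in the differentiating list, with a median difference of 9.76 percentage points over the 15. Over all 8471 pairs the median was 0.316 and 51.8% ranked higher there. In width, 9 of the 15 were wider in differentiating cells, against 56.0% of all pairs. The pairs of most change were the Thra start, the first Rara intronic peak and the Vdr downstream peak, at 64.4, 51.1 and 49.9 points, and the largest fall was that of the last Thra peak, at -24.6 points. As many as 10.1% and 10.9% of all pairs moved by as much as those of Rara and Vdr.

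**Figure D4:**
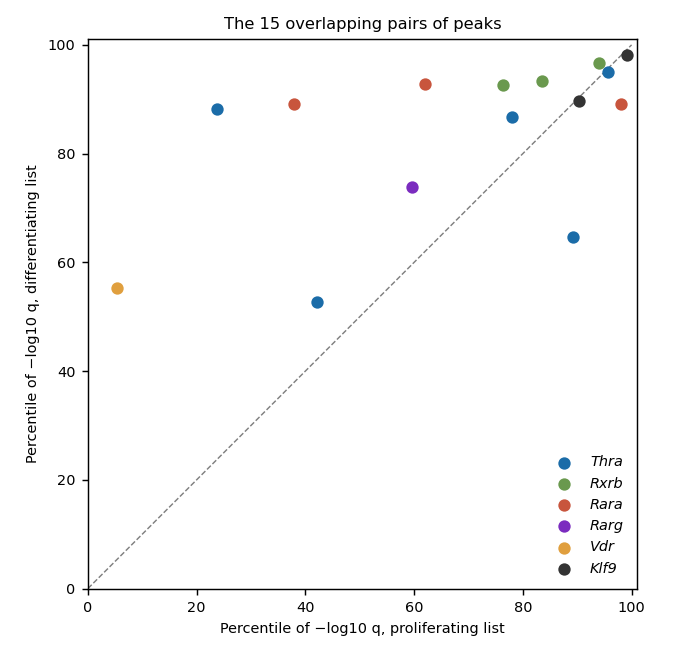
Percentile of −log10 q in the proliferating list (horizontal) and in the differentiating list (vertical) for the 15 pairs of overlapping peaks, coloured by gene. On the dashed line both ranks are equal; 10 pairs lie above it, among them all 3 of Rxrb, and both pairs of Klf9 lie close to it.

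The density of peaks varied widely between the windows. The windows of Thrb and Rarb, both on chromosome 14, held 0.479 and 0 peaks per 100 kb in proliferating cells and 0.479 and 0.233 in differentiating cells, and that chromosome as a whole held 0.411 and 0.390. Rarg and Vdr lie on chromosome 15, with 2.70 per 100 kb in both states, where 93.1% and 93.0% of protein-coding genes had a peak in the window; Rarg had 6.39 and 7.99, and Vdr 3.12 in both. Thra had the highest density, 10.2 per 100 kb in both states, on a chromosome with 1.65 and 1.56. In both states its window included peaks that lay nearest to the TSS of Med24, Nr1d1 or Msl1, and not to that of Thra. Over all windows the nearest TSS of a protein-coding gene was that of the member for 21 of 33 and 19 of 34 peaks. The whole genome gave 1.06 and 1.03. Windows ran from 46.6 kb (Rxrb) to 428 kb (Rarb), and a window around a gene is set here against a chromosome that includes stretches without genes.

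**Figure D5:**
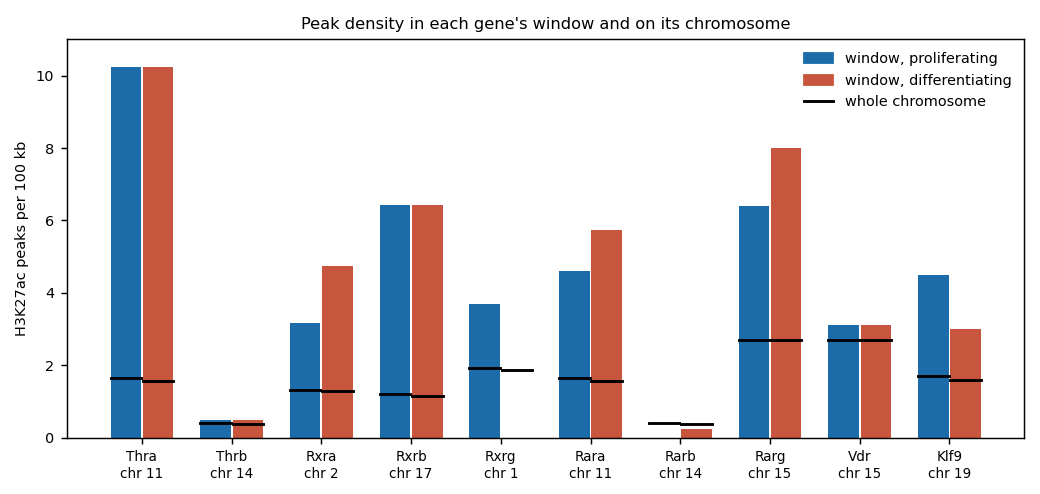
H3K27ac peaks per 100 kb in the window of each gene (bars; blue for proliferating and red for differentiating cells) and on its whole chromosome (black lines). The bars of Thra stand at 10.2, those of Thrb close to the line of chromosome 14, and Rxrg has no differentiating and Rarb no proliferating bar.

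Direct repeats of AGGTCA spaced by 1, 3, 4 or 5 bases, the classical elements bound by RXR heterodimers, were searched in the windows on both strands. Exact repeats numbered 6, in 4 genes, over windows of 1482 kb in all. The share of all protein-coding genes with an exact repeat in such a window was not computed. The count is therefore not read as particular to these genes. Thrb had one with a spacing of 4 bases at 40900 bp and one with a spacing of 1 base at 166706 bp, Rxra one with a spacing of 1 base at 96547 bp, Rxrb one with a spacing of 1 base at -3932 bp and one with a spacing of 5 bases at 5028 bp, and Vdr one with a spacing of 5 bases at 19901 bp. None lay under a proliferating peak, and 1, that of Vdr, lay under a differentiating peak. Peaks covered 2.0% and 2.39% of the bases of the windows, and 0.252% and 0.247% of all peaks of the 2 lists held an exact repeat of any of the 4 spacings. This intronic peak, from 19775 to 20344 bp, had a −log10 q of 1.46 (percentile 22.2), and the nearest proliferating peak lay 3994 bp from it. An exact repeat with a spacing of 5 bases was present in 2 of 2247 differentiating peaks within 10% of its width, or 0.0890%, a spacing and width taken from this match after it was found. The Vdr repeat (chr15:97890683-97890759, minus strand) is shown with 30 bases on both sides and its half-sites in capitals.
Vdr repeat: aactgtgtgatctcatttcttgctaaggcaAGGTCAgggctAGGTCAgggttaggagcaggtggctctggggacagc

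With 1 mismatch allowed, a search added after the exact repeats were known, 83 repeats were found in all 10 genes, of which 0 lay under a proliferating and 2 under a differentiating peak, both in the Vdr window, to be read against the 2.0% and 2.39% of bases under peaks. For repeats with 1 mismatch, too, the share of all genes with one in their window was not computed. Near Klf9 such a repeat with a spacing of 4 bases, the spacing that thyroid hormone receptors favour, lay at -3763 bp, 970 bp from the upstream proliferating peak and 1424 bp from the differentiating one. Rara and Rxrg also had one within 5000 bp upstream, at -1967 bp and -3109 bp. Within 5000 bp upstream of the TSS 4.90% of 21938 protein-coding genes had such a repeat, and 0.228% had an exact one. That of Klf9 is shown (chr19:23137433-23137508, plus strand) with 30 bases on both sides and both half-sites in capitals.
Klf9 repeat: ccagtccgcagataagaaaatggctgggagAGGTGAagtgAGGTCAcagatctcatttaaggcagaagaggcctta
In the RefSeq promoters, from 250 bases before to 50 after each start, 9 of the 10 genes were found. A single AGGTCA on either strand was present in 5 of their 17 promoters, against 16.3% of 32851 promoters of the table. A match describes letters and does not show that a receptor binds there.

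Among 50 other genes of the pathway, in 6 lists, 10 had a promoter peak in proliferating cells, 14 in differentiating cells and 9 in both. These counts lie near the shares over all protein-coding genes, 23.7%, 27.7% and 17.6%. Coregulators, the proteins that nuclear receptors recruit, held many of these promoter peaks: 6 and 7 of 9 had one, and 6 had it in both states. Tbl1xr1, a part of the corepressor complex, ranked at percentiles 98.8 and 95.2, with a −log10 q of 8.21 and 5.35. The corepressor gene Ncor1 stood at 79.9 and 38.2, and Hdac3, the histone deacetylase of that complex, at 73.4 and 60.5. The coactivator genes Ncoa1 and Ncoa2 ranked higher in the differentiating list (61.3 and 82.1; 41.9 and 91.3), and Ncoa3 lower (48.3 and 22.5). Med1, a Mediator subunit that binds nuclear receptors, had a promoter peak in differentiating cells alone.

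Of 9 genes for the transport and metabolism of thyroid hormone, 0 had a promoter peak in proliferating cells and 1, Slc3a2, in differentiating cells. Of 6 genes known to respond to the hormone, Hr, a corepressor gene, had one in both states (percentiles 76.9 and 90.9) and Dbp in differentiating cells alone. Among 14 genes of retinoid transport and metabolism, 3 and 2 had a promoter peak: Rdh10, which makes retinaldehyde (percentiles 93.3 and 95.5), and Fabp5, a lipid carrier (83.8 and 91.0), in both states, and Aldh1a1, which makes retinoic acid, in proliferating cells alone. None of 4 genes of vitamin D metabolism had one in either state. Of 8 other partners of RXR, 0 had a promoter peak in proliferating cells and 2, Ppard and Nr1h3, in differentiating cells. In each state 7 of the 8, not the same 7 genes, had a peak in the window, against 62.7% of all protein-coding genes. Over all 50 genes of the 6 lists 35 and 30 had a peak in the window, near that share. All 50 genes of the 6 lists had 10 and 14 promoter peaks, against 23.7% and 27.7% of all protein-coding genes. Outside the coregulators 4 and 7 of these genes, out of 41, had one. Leaving out the list with the most promoter peaks lowers the count by itself, so the 41 genes are not set against that share.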

How the data were processed

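Libraries of H3K27ac ChIP-seq from proliferating and differentiating Oli-neu cells, 1 each, were used. The authors aligned the reads to GRCm38/mm10 with Bowtie2 2.1.0, removed duplicates, called broad peaks with MACS2 2.0.10 and deposited 1 list of peaks per library, with fold enrichment, −log10 p-value and −log10 q read from a cell without header in the order in which the caller writes them. The methods name no input library and give a stricter q than the weakest peaks hold, and a longer differentiation than the labels. Genes came from GENCODE M21. Peaks were assigned to a gene over its body or within 20 kb, any shared base counted as an overlap, and ranks were set within each list. The members and lists were chosen with earlier results of these data known. Named peaks were those over a TSS or promoter region, those shared and the strongest per gene and list. Pathway genes were named where both lists had a promoter peak; those with one list alone, and neighbouring genes, were named after their values were seen. Alternatives were the thresholds on q, equal numbers of peaks, and other windows, promoter regions and overlaps. Overlap counts and the motif search were tested on simulated data. Python 3.11.15, numpy 2.4.6, scipy 1.17.1, pysam 0.24.0 and matplotlib 3.10.9 were used. Sequences are those of RefSeq and GRCm38.p6.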

Additional observations from a re-analysis of the deposited data

How the results depend on the processing

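Each state has 1 library, so all comparisons are of values without a test. No paired analysis was possible because nothing pairs the ChIP libraries, and the ATAC-seq samples with common replicate numbers (siCtrl, siPadi2) were not used here. Values follow for proliferating and then differentiating cells. Limiting both lists to a −log10 q of 5 or more, and so to fewer peaks, 2 (Rara and Klf9) and 3 (Thra, Rxrb and Klf9) genes kept a peak in the window, 1 gene in both states, 0 and 0 had a promoter peak, 0 in both, and 2 and 3 peaks were left in the windows. Of all peaks of the lists 4.35% and 5.73% passed this limit, and of those of the windows 6.06% and 8.82%. The share of all protein-coding genes that keep a peak at this limit was not computed. The gene bodies alone held 17 and 19 peaks, as the smaller window requires. In differentiating cells 5 genes in place of 3 had a promoter peak with 1000 bp to either side of the TSS, 5 with a region that begins 6000 bp upstream (30.4% of all protein-coding genes) and 5 with the TSS of every annotated transcript (35.3%). A reciprocal overlap of at least 0.5 left 27.3% and 26.5% of the peaks with a counterpart. The direct repeats, 6 when exact, numbered 83 with 1 mismatch, an alternative chosen after seeing the data. The other alternatives, q of at most 0.05 and equal numbers of peaks among them, left these counts within 1.5 times and the shares within their intervals. The lists hold no counts, so the depth behind single peaks is unknown.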

Other observations

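Base composition did not go with the mark at every start. Of the 17 RefSeq promoters of the members, the first of Rxra had 83.0% G and C, above 99.7% of the 32851 promoters of the table, and 55 CpG dinucleotides, and no peak of either state lay on it. The inner promoter of Rxrb had 82.0% and 47 CpG and lay under a peak in both states, and the first of Thrb had 72.7% and 37 CpG and lay under a differentiating peak alone. The inner promoter of Rarg had 51.7% and 10 CpG. It lay under the differentiating peak and only in part under the proliferating one, which ended 121 bp before the start. The median over the 17 promoters was 61.3%, against 52.7% in the whole table.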
